A study of Mus musculus with 6 samples.

Results

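Occupancy by tagged TEAD4 was measured at the genes that encode its own family and its cofactors. TEAD proteins bind DNA through a shared TEA domain and act on transcription through partners. The genes described are Tead1, Tead2 and Tead3, which encode relatives of TEAD4, Yap1 and Wwtr1, which encode the coactivators YAP and TAZ, and Vgll2, Vgll3 and Vgll4, which encode vestigial-like cofactors. They were chosen by name: a probe belonged to a gene where the array annotation gave that gene's symbol with a distance to its start. Of the 8 genes, 7 had such probes, 212 in all among 471870 used on the arrays, and these formed 188 of 428020 windows. No probe named Vgll3, and it has no value here.

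Chromatin immunoprecipitation on promoter arrays was done in C2C12, mouse myoblasts that can be differentiated into myotubes. One population expressed Flag-HA-tagged TEAD4 from a retrovirus, and the control population had received the empty virus vector. Puromycin selection was applied to both, differentiation lasted 5 days in medium with 2% horse serum, and fixation used formaldehyde at 0.4% before precipitation through the Flag tag. The samples number 2 for TEAD4, named as duplicates in the labels, and 1 for the control, and each was hybridised to 2 array designs with precipitated DNA in the Cy5 channel and input DNA in Cy3. The tagged protein was expressed from a vector, so the values describe added TEAD4 and not the cells' own. Nothing in the labels says that the duplicates came from separate cultures, so their spread, and the p-values that rest on it, may be technical, and the spread of the control was not measured. An assay of DNA gives no level of muscle marker RNA, so the state of differentiation was not checked here.

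In the Hippo pathway, the kinases LATS1 and LATS2 phosphorylate YAP and TAZ and keep them out of the nucleus. YAP and TAZ that enter the nucleus bind TEAD proteins and activate their target genes. VGLL proteins bind TEADs as well: VGLL4 competes with YAP for TEAD and is known as a repressor, and VGLL2 is a TEAD cofactor expressed in skeletal muscle. TEAD proteins recognise the MCAT element, whose core is CATTCC and which is found in many promoters of muscle genes.

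The core was looked for in RefSeq promoters on GRCm38.p6, taken from 250 bases before to 50 after each start, since these are the promoters in which a TEAD protein could bind near the genes of its own family. The letters CATTCC on the gene's strand, or GGAATG where the core lies on the other strand, were present in 14.7% of 32851 such promoters, and in at least 1 promoter of 16.6% of 27025 genes. CATTCC and GGAATG cannot overlap each other, though copies of the same spelling can share a base. Of the 6 genes with both array windows and a promoter in the table, 4 held the core. Tead1 had windows but no promoter in the table, so the core was not looked for there. The promoters below are from 2 of them that passed the rule of enrichment over input given later (Wwtr1 and Vgll4) and 2 that did not (Yap1 and Tead3), all on the minus strand and written 5′ to 3′ on the gene's strand, with the core in capitals. The locations are chr3:57575861-57576160 for Wwtr1, chr6:114969154-114969453 for Vgll4, chr9:8004547-8004846 for Yap1 and chr17:28350551-28350850 for Tead3.
Wwtr1: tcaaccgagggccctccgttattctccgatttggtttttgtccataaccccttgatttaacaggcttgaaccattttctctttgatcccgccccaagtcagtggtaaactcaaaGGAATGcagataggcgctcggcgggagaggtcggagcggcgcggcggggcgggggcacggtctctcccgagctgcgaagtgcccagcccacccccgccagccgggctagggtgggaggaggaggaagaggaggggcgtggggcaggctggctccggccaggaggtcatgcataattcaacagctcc
Vgll4: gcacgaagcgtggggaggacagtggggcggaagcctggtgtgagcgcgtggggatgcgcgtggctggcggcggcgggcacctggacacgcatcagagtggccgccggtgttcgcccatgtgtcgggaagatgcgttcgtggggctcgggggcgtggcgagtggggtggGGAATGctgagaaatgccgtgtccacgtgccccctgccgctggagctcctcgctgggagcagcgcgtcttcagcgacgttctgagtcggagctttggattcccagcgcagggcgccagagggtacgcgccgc
Yap1: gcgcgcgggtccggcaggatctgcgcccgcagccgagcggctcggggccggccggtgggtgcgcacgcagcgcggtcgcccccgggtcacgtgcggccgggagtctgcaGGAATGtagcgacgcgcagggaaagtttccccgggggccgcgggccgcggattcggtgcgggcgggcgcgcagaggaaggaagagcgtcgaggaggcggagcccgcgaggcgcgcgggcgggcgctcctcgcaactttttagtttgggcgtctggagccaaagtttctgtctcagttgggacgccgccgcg
Tead3: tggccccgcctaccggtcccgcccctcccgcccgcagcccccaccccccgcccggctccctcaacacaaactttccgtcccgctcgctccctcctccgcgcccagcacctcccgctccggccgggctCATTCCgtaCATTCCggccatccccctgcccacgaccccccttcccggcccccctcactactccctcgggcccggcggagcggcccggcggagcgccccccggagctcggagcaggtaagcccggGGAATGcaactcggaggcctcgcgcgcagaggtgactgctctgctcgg
The Wwtr1 promoter held 1 core, which began 136 bases before the start. The Vgll4 core began 82 bases and the Yap1 core 141 bases before the start. The Tead3 promoter shown, 1 of 3 in the table, held 3 cores, at 123 and 114 bases before the start and 2 bases after it. The promoters of Tead2 and Vgll2 held none of these letters, and neither gene passed the rule of enrichment. That rule takes any window of a gene and not only the promoter searched, and a link between core and enrichment was not tested. A match is a description of the letters, and the starts in the table need not be those the array annotates. For the array coordinates printed below, the build is not given in the sources used.

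A value below is the log2 of precipitated over input DNA, centred on the median of its array, averaged over a window of at least 3 probes whose centres lay within 500 bp of the central probe. Neighbouring windows share probes and are not independent. A gene counted as enriched where a window was at least 2-fold over input (a log2 of 1) in both TEAD4 samples. Of the 7 genes, 3 passed, Tead1, Wwtr1 and Vgll4, against 5.21% of the 16310 genes on the arrays. Tead1 alone had such a window that both samples also held at 2-fold or more over the control, which 2.55% of all genes did. That count was 3 with quantile normalization, with a common spread per array or with each probe length centred on its own median. These added Wwtr1 and Vgll4, and 17.2%, 9.07% and 3.19% of all genes then passed. Without TEAD4 sample 1, Wwtr1 also passed the rule over input and control (8.29% of all genes), and Yap1 passed the rule over input (15.6%). Without sample 2, Vgll4 also passed the rule over input and control (3.87%). The control itself reached 2-fold over input somewhere in 6 of the 7 genes, all but Tead1, and in 85.6% of all genes. Ranked by the highest TEAD4 mean of any window, 210 genes stood above Tead1, 254 above Vgll4 and 598 above Wwtr1. Yap1, Tead2, Tead3 and Vgll2 lay lower, behind 4278, 4712, 8288 and 12182 genes.

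**Figure D1:**
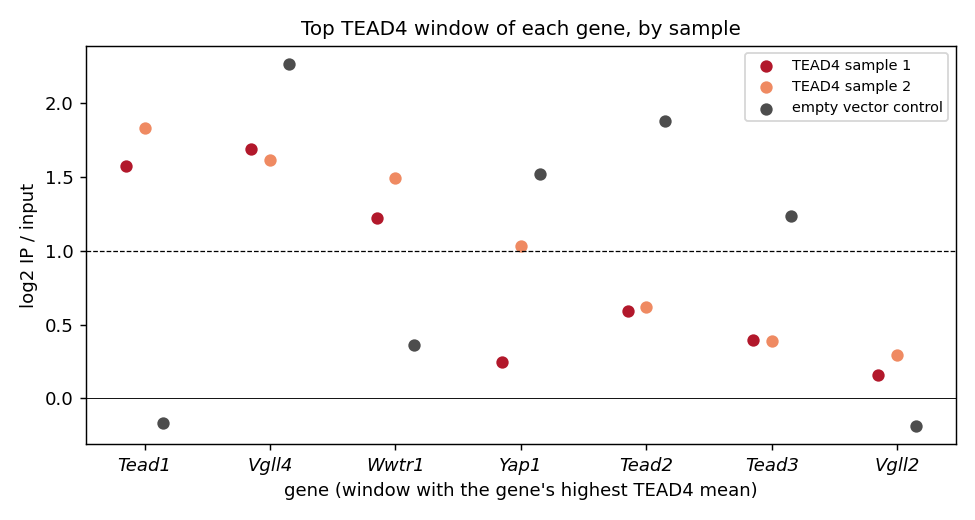
For each of the 7 genes (horizontal axis, ordered by TEAD4 mean), the log2 of precipitated over input DNA in the window with its highest TEAD4 mean, 1 point per sample; the dashed line marks 2-fold. Both TEAD4 samples lie above the line at Tead1, Vgll4 and Wwtr1, and the control lies below both TEAD4 samples at Tead1, Wwtr1 and Vgll2.

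The control was more variable than the TEAD4 samples. Over all windows its SD was 1.04, against 0.38 in TEAD4 sample 1 and 0.40 in sample 2, and its median was 0.26. The precipitated DNA of the control was also dimmer, at 1.84 and 2.04 times local background on the 2 designs against 3.62 to 5.41 times in the TEAD4 samples. On probes of 45 bases the control median was 1.82, and on probes of 60 bases it was -0.62. The TEAD4 samples differed less between these lengths, with medians of 0.25 and 0.12 on 45-base probes and -0.19 and -0.10 on 60-base probes. Near gene starts the control was high as well, with 56.3% of windows within 500 bp at 2-fold or more, against 17.1% beyond 2000 bp. The control arrays were also extracted from the scans with another setting than the TEAD4 arrays. The part of probe length, place and scanner setting in the differences from the control was not tested, and differences are given beside the levels of the samples. The median difference between TEAD4 and control over all windows was -0.26 and moved to 0.01 with normexp background correction. Differences and limma calls are against 0, without taking this shift off.

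TEAD4 was compared with the control by limma, fitted over all windows of a design, with adjusted p-values over all windows. The fit assumes that the control varies like the TEAD4 duplicates. It had 1 residual degree of freedom, against 13.4 and 13.9 prior degrees of freedom on the 2 designs. The limma p-values therefore hold no measure of the spread of the control. By the limma test, with the lowest window p of a gene deciding its direction, 2 of the 7 genes were higher in TEAD4 (Tead1 and Vgll4) and 5 were lower (Tead2, Tead3, Yap1, Wwtr1 and Vgll2). Of all genes, 93.4% were called in one direction or the other, 12.4% higher and 81.0% lower, so most genes of the array had the lower call too. The split depended on the scaling: it was 2 higher and 0 lower with normexp, 3 and 0 with quantile normalization, and 0 and 0 with a common spread per array. Of all genes, 2% were higher and 4.89% lower with normexp, 6.54% and 3.13% with quantile normalization, and 0.748% and 0.172% with a common spread. Among the 188 windows, 35 were higher and 66 lower, against 11.6% and 33.5% of all windows. The 2-fold rule over input was met by 17 of the 188 windows, against 0.660% of all, and the control reached 2-fold in 64, against 26.4%.

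Tead1, which encodes a TEAD factor long studied at muscle promoters, had the highest TEAD4 mean of the 7 genes. All of its 39 probes lie inside the gene, at windows 74539 to 81996 bp from the annotated start, and none lies near that start. They tile the start of another transcript listed by the array, the cDNA BC060138, with window centres from 5311 bp before to 2146 bp after it. The top window, 1249 bp after the BC060138 start at chr7:112551615-112552305, held 5 probes. Its log2 value was 1.57 in TEAD4 sample 1, 1.83 in sample 2 and -0.17 in the control. Both TEAD4 samples were thus enriched where the control was slightly below input, and the mean of 1.70 ± 0.18 (SD, n = 2) is 3.26-fold over input. The difference from the control was 1.87 (SE 0.29, limma adjusted p = 0.000125), or 3.67-fold.

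The enriched stretch at Tead1 was made of adjacent windows that share probes. The 5 enriched windows, centred 1014 to 1652 bp after the BC060138 start, cover 1670 bp and 8 probes. Of these probes, 5 were at 2-fold or more in both TEAD4 samples, and they are the probes of the top window. At the outer probes, 536, 1838 and 2146 bp after the start, sample 1 was at 1.06, 0.73 and -0.47. Sample 2 was at -0.27, 0.87 and 0.36 there. At their 5 central probes, sample 1 ran from 1.32 to 1.98 and sample 2 from 1.57 to 2.09, while the control ran from -1.82 to 1.01. Each of the 5 central probes was above 2-fold in both TEAD4 samples, and the control reached 2-fold at 1 of the 8 probes. Every one of the 8 probes was well above background in the precipitated channel of each sample.

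A second stretch of Tead1 lay before the BC060138 start. In 7 windows from 2501 to 1347 bp before it, sample 1 ran from 0.72 to 1.11, sample 2 from 0.73 to 1.23 and the control from -0.80 to -0.29. The TEAD4 samples did not both reach 2-fold over input in any of these windows, but both exceeded the control by 2-fold or more in each, with differences of 1.09 to 1.72 (limma adjusted p from 0.000262 to 0.0062). With normexp or a common spread, the windows 2170 and 1795 bp before the start kept their direction but lost the call. In the window 2170 bp before the start the values were 0.88 in sample 1, 1.23 in sample 2 and -0.49 in the control. In the window 1647 bp before it they were 1.11, 0.73 and -0.70, so a different duplicate was the higher one. Between the stretches, in the window 59 bp after the start, the 3 samples were level, at 0.37, 0.44 and 0.49. The control was below input in both stretches.

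**Figure D2:**
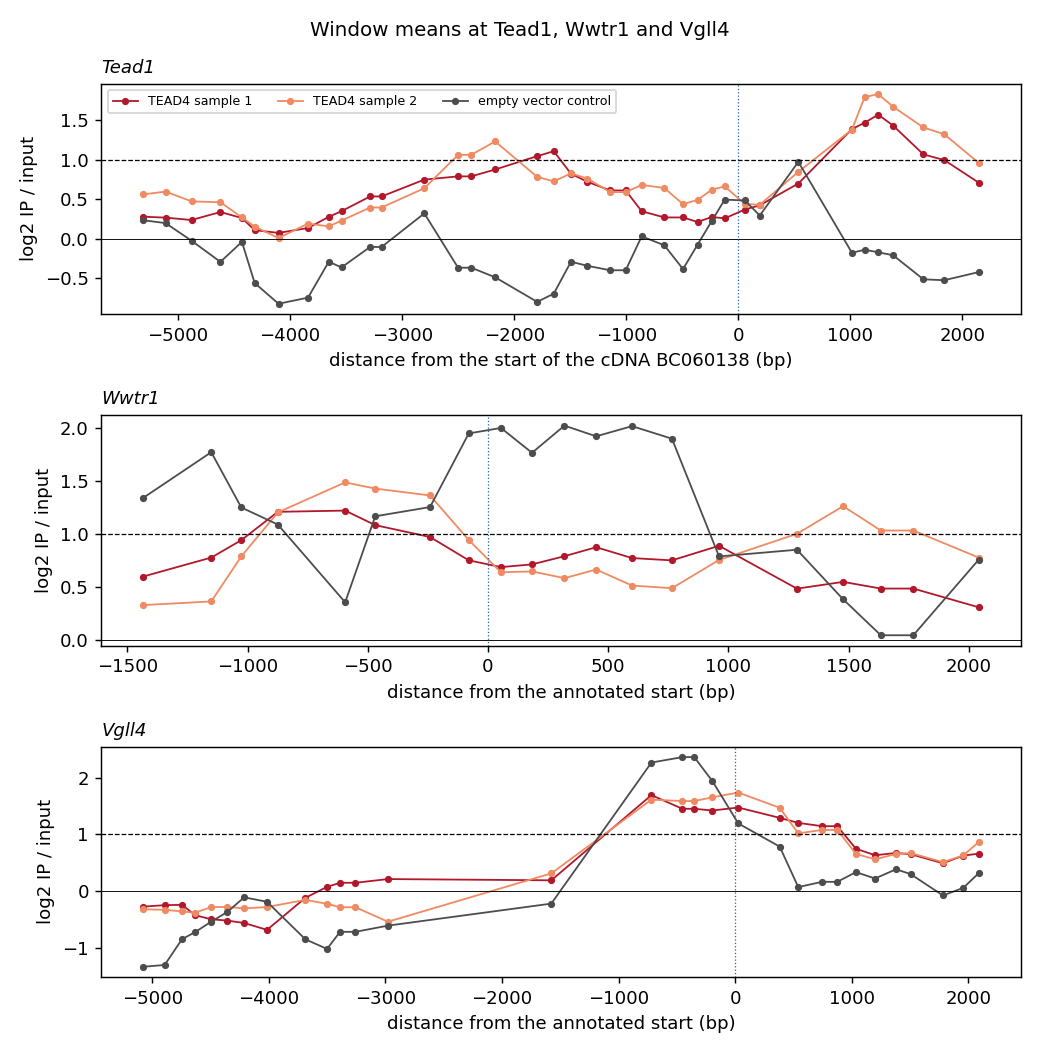
Window means of log2 precipitated over input DNA along Tead1, Wwtr1 and Vgll4, against distance in bp from the BC060138 start (Tead1) or the annotated start (others), 1 line per sample, with a dashed line at 2-fold and a dotted line at the start. The TEAD4 samples and the control separate at Tead1, with TEAD4 up to 1.83 and the control at -0.17, while at Wwtr1 and Vgll4 the control also exceeds 2-fold near the start.

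Wwtr1, which encodes the coactivator TAZ, was enriched over input just upstream of its start. The 3 enriched windows were centred 874, 594 and 469 bp before it. In the top window, 594 bp before the start at chr3:57664019-57664861, the values were 1.22 in sample 1, 1.49 in sample 2 and 0.36 in the control. The TEAD4 mean was 1.36 ± 0.19 (SD, n = 2), or 2.56-fold over input. Both TEAD4 samples were above the control, by 1.00 on average (SE 0.29, limma adjusted p = 0.0116), but sample 1 by less than 2-fold. The call was lost with normexp (0.69, adjusted p = 0.232) and with a common spread per array (1.81, adjusted p = 0.101), and with windows of 1000 bp on each side the difference turned to -0.78. In the enriched windows on either side of this one, the control was at 1.09 and 1.17, level with TEAD4 at 1.21 and 1.21 and at 1.09 and 1.43.

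Nearer the Wwtr1 start the order of the samples changed. In the window 54 bp after it, sample 1 was at 0.69, sample 2 at 0.64 and the control at 2.00, a difference of -1.34 (limma adjusted p = 0.00153) that turned to 0.32 with quantile normalization and 0.03 with a common spread per array. The mean probe length was 47.5 bases in this window and 52.2 in the top window. From 80 bp before the start to 765 bp after it, all 7 windows had the control at least 2-fold above both TEAD4 samples. The TEAD4 signal fell off over the start, and the control signal was highest there.

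Vgll4, which encodes the repressive cofactor, had the broadest enrichment of the 3 genes. Its 9 enriched windows, of 7 different probe sets, ran from 719 bp before to 875 bp after the start and covered 1974 bp. The top window, at chr6:114887695-114888120 and 719 bp before the start, held 3 probes with values of 1.69 in sample 1, 1.61 in sample 2 and 2.27 in the control. The TEAD4 mean was 1.65 ± 0.06 (SD, n = 2), or 3.15-fold over input. The control was higher than both TEAD4 samples, by a difference of -0.61 that did not pass the test (limma adjusted p = 0.0907) and whose direction depended on the scaling: it was 0.77 with normexp, 1.35 with a common spread per array and 1.60 with quantile normalization, and -1.05 (adjusted p = 0.0116) with each probe length centred on its own median. In the window 26 bp after the start, the values were 1.47, 1.74 and 1.19, each above 2-fold. The control value there is the mean of 5 probes that ran from -1.79 to 3.64.

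In window means, the control dropped along Vgll4 faster than TEAD4 did, but its single probes did not fall steadily. They were at 3.64, -1.79, 1.01, 2.67 and -1.60 at 26, 381, 540, 745 and 875 bp after the start. In the window 540 bp after the start, the values were 1.20 in sample 1, 1.02 in sample 2 and 0.07 in the control. Both TEAD4 samples were above the control, by 1.04 (SE 0.29, limma adjusted p = 0.00871), a call lost with a common spread (1.59) and with neighbours within 250 bp (0.70) or 1000 bp (0.39). In the window 745 bp after the start, TEAD4 was at 1.15 and 1.08 and the control at 0.17, a difference of 0.95 (limma adjusted p = 0.0138). Of the 9 enriched windows, the control was at 2-fold or more in 5, TEAD4 was higher by limma in 3 and lower in 2. The 2 lower windows, centred 454 and 352 bp before the start, share 1 set of probes, with 1.45 in sample 1, 1.59 in sample 2 and 2.36 in the control, a difference of -0.84 (limma adjusted p = 0.0258) that turned to 0.82 with normexp and 1.11 with a common spread per array. The gene's call of higher came from elsewhere, a window 5078 bp before the start where both TEAD4 samples were below input, at -0.27 and -0.32, and the control further below, at -1.33. That difference of 1.04 (limma adjusted p = 0.00827) kept its direction but lost its call with normexp (0.06), a common spread (0.20), quantile normalization (0.45), neighbours within 1000 bp (0.32) and centring within probe length (0.58).

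Yap1, which encodes the coactivator YAP, did not pass, and its duplicates differed. In its top window, 486 bp before the start at chr9:8005081-8005625, sample 1 was at 0.24, sample 2 at 1.04 and the control at 1.52, a difference of -0.88 that turned to 0.38 with quantile normalization. Only sample 2 reached 2-fold, and the SD of 0.56 between duplicates was the largest of the 7 top windows. Yap1 also held the highest control value of any window of the 7 genes, 3.11 at 177 bp after the start, where TEAD4 was at 0.36 and 0.32. That difference of -2.77 (limma adjusted p = 4.18e-06) was -0.96 with normexp and -0.85 with quantile normalization, neither of which passed the test. The 6 probes of this window averaged 45.5 bases. Downstream, in the window 1626 bp after the start with probes averaging 59.5 bases, the order was the opposite: TEAD4 was at 0.29 and 0.31 and the control at -0.82, a difference of 1.12 (limma adjusted p = 0.005) whose call was lost with normexp (0.34), a common spread (0.83), quantile normalization (1.19), neighbours within 1000 bp (0.47) and centring within probe length (0.68).

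Tead2 and Tead3, which encode TEAD factors, had no window at 2-fold in either TEAD4 sample, although Tead2 passed the rule over input with quantile normalization, where the TEAD4 mean of its top window was 1.23, and at a threshold of 1.5-fold. In the top window of Tead2, 184 bp after the start at chr7:45083694-45084491, TEAD4 was at 0.59 and 0.62 and the control at 1.88. The duplicates lay close together and below 2-fold, and the control was above both, an order that turned with quantile normalization, where the difference was 0.32. The window 78 bp before the start, which the annotation also gives to the divergent gene Dkkl1, had TEAD4 at 0.56 and 0.39 and the control at 2.51. Its difference of -2.03 (limma adjusted p = 5.70e-05) was -0.31 (adjusted p = 0.413) once each probe length was centred on its own median.

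The top window of Tead3, 2116 bp after the start at chr17:28075739-28076351, had 0.39 in sample 1, 0.39 in sample 2 and 1.24 in the control, a difference of -0.85 that turned to 0.54 with normexp. TEAD4 was flat along the 21 windows of Tead3, between 0.05 and 0.39 in sample 1 and between 0.15 and 0.44 in sample 2. The control ranged from 0.61 to 2.14 and was highest 225 bp after the start, where TEAD4 was at 0.37 and 0.21. That difference of -1.85 (limma adjusted p = 4.75e-05) turned to 0.34 with normexp.

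Vgll2, which encodes the cofactor expressed in muscle, had the lowest TEAD4 values at its top. Its top window, 4164 bp before the start at chr10:51706754-51707067, had 0.15 in sample 1, 0.30 in sample 2 and -0.19 in the control, a difference of 0.41 that did not pass the test (limma adjusted p = 0.204) but did with neighbours within 1000 bp (0.62, adjusted p = 0.0218). All 3 samples were near input there. At the start itself, in the window 6 bp before it, TEAD4 was at 0.07 and -0.25 and the control at 2.57. The difference of -2.66 (limma adjusted p = 3.04e-06) was -0.07 (adjusted p = 0.926) with normexp.

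**Figure D3:**
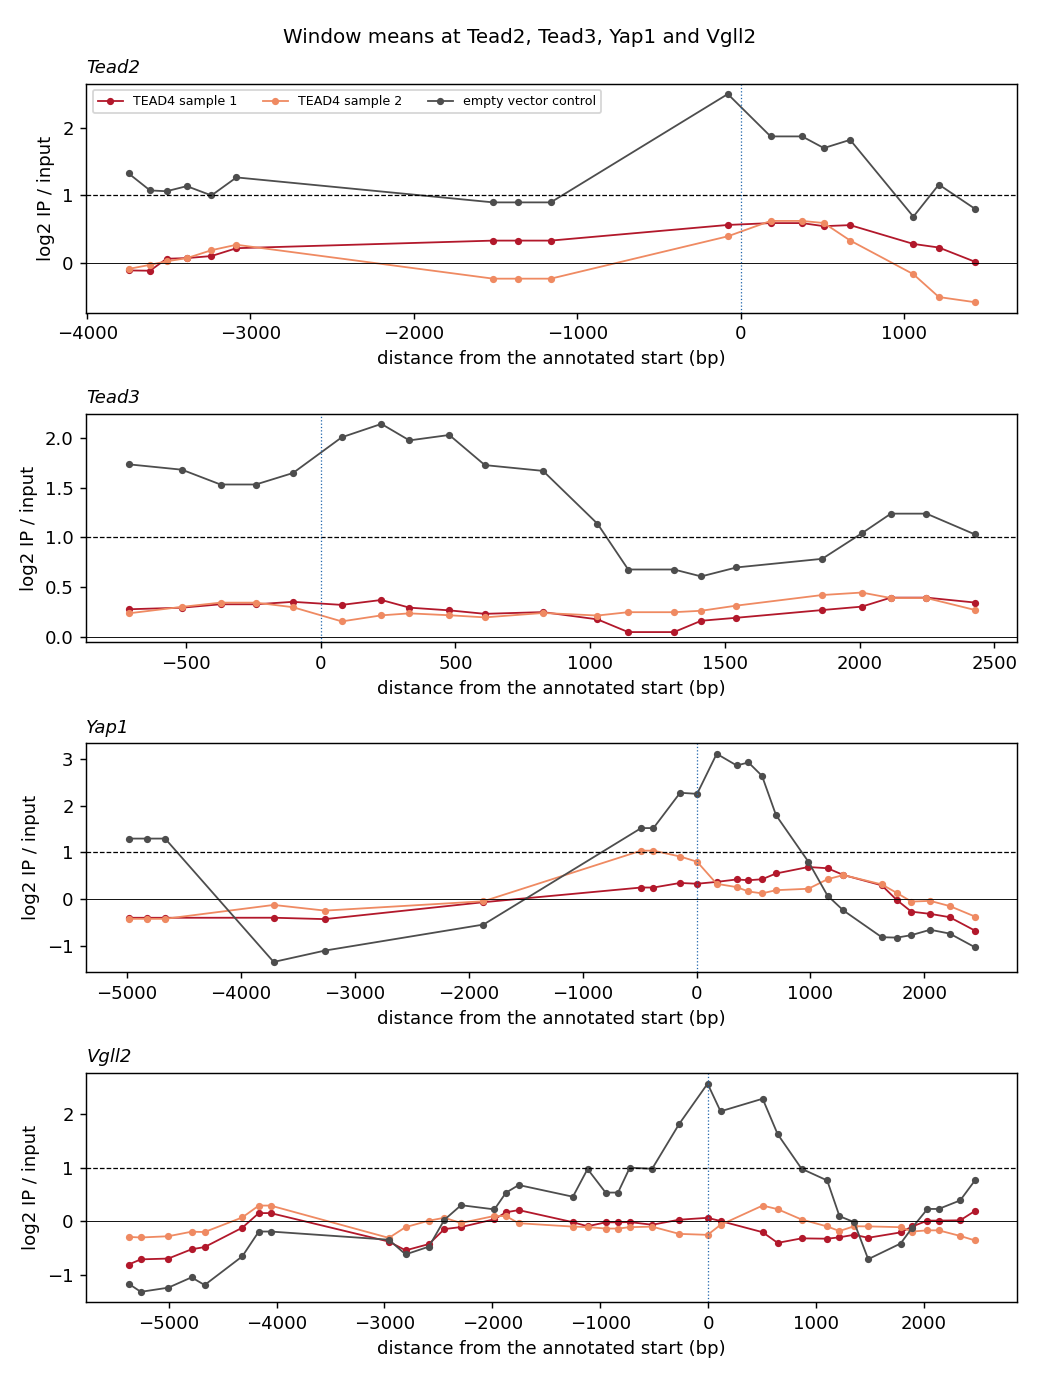
Window means of log2 precipitated over input DNA along Tead2, Tead3, Yap1 and Vgll2 against distance in bp from the annotated start, 1 line per sample, with a dashed line at 2-fold and a dotted line at the start. On this scale the control is highest near each start, up to 3.11 at Yap1, and the TEAD4 samples stay under 2-fold together; sample 2 alone passes it, at Yap1.

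The windows at the low end were also examined. The lowest TEAD4 mean of a window was 0.04 at Tead1, 0.15 at Tead3 and 0.47 at Wwtr1, so that no window of these 3 genes had a TEAD4 mean below input. It was -0.29 at Tead2, -0.48 at Vgll4, -0.53 at Yap1 and -0.55 at Vgll2. Nearest to the annotated start, the TEAD4 mean was 1.61 at Vgll4, 0.67 at Wwtr1, 0.56 at Yap1, 0.48 at Tead2, 0.24 at Tead3 and -0.09 at Vgll2, with the control above the TEAD4 mean at all of these but Vgll4 on this scale and, at Wwtr1, below it with quantile normalization.

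Across probes of a gene, which share arrays and are not replicates, Pearson's r between TEAD4 samples was 0.81 at Vgll4 (34 probes), 0.67 at Wwtr1 (25 probes) and 0.60 at Tead1 (39 probes). It was 0.44 at Yap1 (30 probes), 0.40 at Tead3 (22 probes), 0.36 at Tead2 (22 probes) and 0.02 at Vgll2 (39 probes). Such an r grows with the range of signal along a gene. The median absolute difference between the duplicates over windows was smallest at Tead3 (0.05) and Tead2 (0.09), followed by Vgll4 (0.13), Vgll2 (0.19), Tead1 (0.20) and Yap1 (0.24), and largest at Wwtr1 (0.26). The correlation of the TEAD4 mean with the control over the same probes was 0.53 at Vgll4, 0.36 at Tead2 and 0.25 at Vgll2. It was 0.16 at Yap1, 0.14 at Tead3, -0.10 at Tead1 and -0.17 at Wwtr1.

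Pooled over the windows of the 7 genes, median TEAD4 values were only slightly higher where the control was high. In the 64 windows where the control was 2-fold or more, the median TEAD4 value was 0.35 in sample 1 and 0.33 in sample 2, and the probes averaged a median of 48.4 bases. In the other 124 windows the medians were 0.21 and 0.24, with 55.9 bases. All 38 windows of Tead1 lay in this set. The medians pool genes and do not describe change along a single gene. Of the 17 enriched windows, 7 lay in the first set and 10 in the second.

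**Figure D4:**
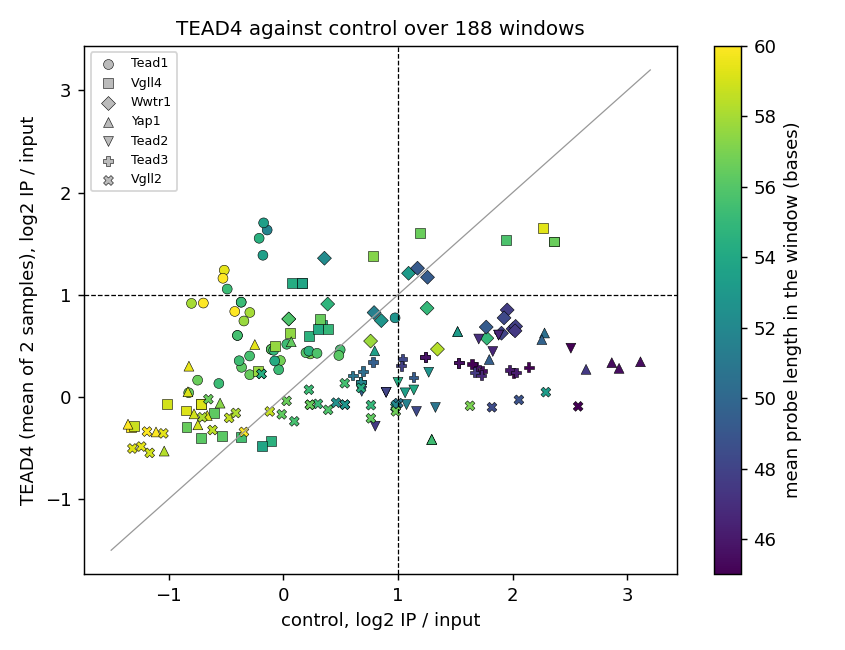
Mean log2 precipitated over input DNA of the 2 TEAD4 samples (vertical) against the control (horizontal) in the 188 windows of the 7 genes, 1 symbol per gene, coloured by mean probe length in bases; dashed lines mark 2-fold and the grey line equality. All Tead1 windows lie left of the vertical dashed line, with TEAD4 up to 1.70 and the control never above 0.98. Of its 38 windows, 5 were at 2-fold in both TEAD4 samples. The upper left also holds 4 enriched windows of Vgll4 and 1 of Wwtr1, and windows of short probes lie to the right.

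Tead4 itself and the remaining vestigial-like gene Vgll1 were looked at beside these. Tead4 had 2 probes, 7422 and 7078 bp before its start, and no window. At the first, the values were -0.38 in sample 1, 0.04 in sample 2 and 0.27 in the control, and at the other -0.02, -0.88 and -1.86, with no TEAD4 value at 2-fold. Vgll1 had 30 windows and a top TEAD4 mean of 0.28, 397 bp after the start, with TEAD4 at 0.41 and 0.14 and the control at 0.48. It was not called in either direction (limma adjusted p = 0.11 for the gene).

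Among the top windows of other genes, those most like the top window of Tead1, by Euclidean distance over the 3 samples, belonged to Enah, Gpx8 and Lrch1. The Enah window, 1764 bp before its start, was at 1.58 and 1.93 in TEAD4 and -0.30 in the control, at a distance of 0.157 from Tead1. The Gpx8 window had 1.48, 1.82 and -0.02, and the Lrch1 window 1.69, 1.71 and -0.09.

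Other genes of the pathway were read from a list of 18 Hippo components, of which 13 had windows. Of these 13, 3 were enriched over input, Map4k4, Frmd6 and Amotl2, against 5.21% of all genes. Map4k4 and Frmd6, 2 of the 13, were also enriched over the control, against 2.55% of all genes. The median of the highest TEAD4 window was 0.68 over the 13 genes, 0.64 over the 7 members and 0.40 over all genes. Map4k4, which encodes a kinase that acts on LATS, was at 2.71 and 2.69 in TEAD4 and -0.15 in the control, 1301 bp after the start. That TEAD4 level was higher than at any of the 7 genes, and the difference from the control was 2.85 (limma adjusted p = 3.40e-06). Frmd6, which encodes a FERM domain protein placed upstream of the pathway, was at 1.32 and 1.98 against 0.21, 1109 bp after the start. By gene, limma called 3 of the 13 higher and 9 lower, against 12.4% and 81.0% of all genes.

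A list of 15 known YAP and TEAD target genes had windows for 14. Of these, 6 were enriched over input and 3 also over the control, against 5.21% and 2.55% of all genes. The median of the highest TEAD4 window was 1.02. The 3 were Thbs1, Ankrd1 and Ccn1, which encode thrombospondin 1, an ankyrin repeat protein of muscle and a matricellular protein. Thbs1 was at 2.40 and 2.33 in TEAD4 and -0.55 in the control, 1354 bp before the start. Ankrd1 was at 1.81 and 2.41 against -0.12, 119 bp before the start, and Ccn1 at 1.61 and 2.48 against 0.32, 1863 bp before the start. That both TEAD4 samples lay above the control in all 3 follows from the rule by which they were named. Limma called 1 of the 14 genes higher and 13 lower, against 12.4% and 81.0% of all genes. The direction is set by the window of lowest p in each gene and not by its top window. Amotl2 and Lats2 are in both lists, and both lists were chosen with earlier results of these data known.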

How the data were processed

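Per the file headers, the deposited intensity values are processed signals from Agilent Feature Extraction 9.5.3.1, with spatial and multiplicative detrending on. The headers give the background and dye normalization methods only as codes. The deposited log10 ratios of IP over input come from these signals. Per the headers the control arrays used extended dynamic range and the TEAD4 arrays did not. From the processed intensities, a log2 ratio of IP to input was taken and centred per array on its median, with non-uniform probes left out. Precision is limited by 3 samples: 2 against 1 cannot give an exact permutation p below 0.333. Windows (500 bp each side, at least 3 probes) were tested with limma 3.58.1 (1 residual degree of freedom, Benjamini-Hochberg over all windows). A Simes p per gene was adjusted over 16310 genes, and the threshold was 0.05 for both. The steps were first run on simulated arrays where all 3 samples shared 1 spread and probes were independent. That run cannot show how the test behaves where the control is more variable, as it is here. Named windows were each gene's top, lowest, nearest to the start and lowest p; others were chosen after their values were seen. For lists, up to 4 genes passing both rules with the highest top windows, and 3 genes nearest to the top window of Tead1, were named. Array symbols were updated through RefSeq (GRCm38.p6). The members and lists were chosen with earlier results of these data known.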

Additional observations from a re-analysis of the deposited data

How the results depend on the processing

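The difference from control at the top window of Tead1 kept its direction and its limma call under all 10 alternatives that could test it (1.35 to 2.96). It has no value when probes are limited to 2000 bp of an annotated start. Without TEAD4 sample 1 or 2 limma has no residual degrees of freedom and was not run. No paired analysis was possible because the control has 1 sample. Centring within each probe length was chosen after seeing the data. The cause of the changes below was not tested.

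Of the 7 genes, the count enriched over input was 1 at 3-fold (Vgll4), 2 to 4 under every other alternative (4 with quantile or 1.5-fold, which add Tead2), and 3 to 4 leaving out 1 TEAD4 sample (4 without sample 1, which adds Yap1). Of all genes, 0.766% were enriched over input at 3-fold, 27.9% with quantile, 20.2% at 1.5-fold and 3.19% within 2000 bp of a start. The count enriched over input and control, 1 as reported, was 2 with normexp (Tead1, Vgll4), loess or neighbours within 250 bp (Tead1, Wwtr1) and within 2000 bp of a start (Wwtr1, Vgll4). Of all genes, 2.51%, 2.54%, 3.51% and 1.62% passed in these settings in turn. The count among the 7 genes was 3 with a common spread, quantile, centring within probe length or 1.5-fold (Tead1, Wwtr1, Vgll4), and 0 at 3-fold. Of all genes, 9.07%, 17.2%, 3.19% and 9.14% passed in those settings in turn, and 0.392% at 3-fold. Leaving out either TEAD4 sample gave 2: Wwtr1 was added without sample 1, and Vgll4 without sample 2. Genes called either way by limma numbered 2 with normexp, 3 with quantile and 0 with a common spread (unadjusted p under 0.05 in 3). Of all genes, 6.89%, 9.66% and 0.92% were called in these settings in turn. Higher calls numbered 0 with a common spread (unadjusted 3) and 1 with neighbours within 1000 bp or probes within 2000 bp. Of all genes, 0.748%, 15% and 20% were higher there. Lower calls numbered 0 with normexp (unadjusted 1), a common spread or quantile (unadjusted 0 in both), and 3 with centring within probe length. Of all genes, 4.89%, 0.172%, 3.13% and 72.3% were lower there.

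Differences from control that passed the test reversed as follows. At the top window of Tead2 it became 0.0019 with a common spread, 0.32 with quantile and 0.086 with centring within probe length. At that of Tead3 it became 0.54 with normexp, 0.042 with a common spread, 0.24 with quantile and 0.37 with centring within probe length, and at its window of lowest p 0.34 with normexp. At the top window of Yap1 it became 0.21 with a common spread and 0.38 with quantile. At Wwtr1 it became -0.78 in the top window with neighbours within 1000 bp and 0.28 in the window of lowest p with quantile. The difference at the top window of Vgll4, which did not pass the test as reported, became 0.77 with normexp, 1.35 with a common spread and 1.60 with quantile.

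Over all genes, the share enriched over input ran from 0.766% (3-fold) to 27.9% (quantile), over input and control from 0.392% to 17.2%, higher by limma from 0.748% (common spread) to 20.8% (loess) and lower from 0.172% (common spread) to 81.1%.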
